A study of Mus musculus with 8 samples.

Results

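The mitochondrial ribosomal protein genes, named *Mrpl* for the large and *Mrps* for the small subunit, were followed through RNA sequencing of naïve CD4 T cells and effector Th1, Th2 and Th17 cells. Members were all genes whose symbol is *Mrpl* or *Mrps* followed by a number and at most 1 letter, with a mean of at least 1 FPKM (fragments scaled by exon length and by library depth) over the 8 libraries. The 76 genes whose symbols match, 47 *Mrpl* and 29 *Mrps*, all reached that level, out of 23284 genes in the files and 11198 genes with a mean of at least 1 FPKM. All cells came from DO11.10 Tg mice, whose transgenic T cell receptor recognizes an ovalbumin (OVA) peptide, and mice in the study were 6 to 12 weeks old. The naïve cells were splenic CD4 T cells purified by sorting as CD44 low and CD62L high, and were not cultured. The effector Th cells were grown from such cells for 6 days with OVA peptide and irradiated, T cell-depleted BALB/c splenocytes, and a sort after culture is not given in the sources used here. For Th1 cells, 30 U/ml of IL-2 and 100 U/ml of IL-12 were added, and IL-4 was blocked with 1 µg/ml of antibody. For Th2 cells, the additions were 30 U/ml of IL-2 and 100 U/ml of IL-4, with 10 µg/ml of antibody to IFN-γ. For Th17 cells, IL-6, IL-1β and IL-23 were present at 10 ng/ml apiece, and antibodies to IL-4 and to IFN-γ at 10 µg/ml apiece. Each of the 4 groups had 2 libraries. The labels do not say whether replicates were separate mice or cultures, so the p-values measure only the spread between these libraries, which may be technical. A culture differed from naïve cells in time, medium, stimulation and feeder cells at once, and these cannot be told apart.

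Mitochondria make a small set of respiratory chain subunits on their own ribosomes. The RNA of these ribosomes comes from mitochondrial DNA, but their proteins are encoded by nuclear genes, made in the cytosol and imported. The large subunit forms the peptide bonds and releases the new chain through an exit tunnel at the inner membrane, while the small subunit decodes the mRNA. About some members the symbol is misleading. MRPS18A and MRPS30 lie in the large subunit of the assembled particle, and MRPS36 is now regarded as a subunit of the 2-oxoglutarate dehydrogenase complex. T cells leaving the naïve state enlarge their mitochondria.

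The confidence intervals in the files implied 14463466 to 21058286 fragments per library. Lineage markers followed the labels, with *Cxcr3* as an exception. *Tbx21*, *Ifng*, *Il12rb2* and *Cxcr3* summed to 907 to 1048 FPKM in Th1 and at most 144 FPKM elsewhere, and *Gata3*, *Il4*, *Il5* and *Il13* to 384 to 417 FPKM in Th2 and at most 26.4 FPKM elsewhere. *Ifng* made up most of the Th1 sum, at 802 and 614 FPKM. By itself, *Cxcr3* was at 8.01 and 9.35 FPKM in Th1 and at 11.3 and 11.5 FPKM in Th17. *Il17a* stood at 335 and 347 FPKM in the Th17 libraries and at most 0.711 FPKM elsewhere. The *Cd8a* and *Cd8b1* sum was 54.5 to 93.4 FPKM in naïve libraries and 8.94 to 13.0 FPKM in effector libraries. The 5 B cell markers summed to 2.32 to 12.1 FPKM and the 5 myeloid markers to 7.94 to 27.8 FPKM over the 8 libraries. Of the 5 dendritic markers 4, and of the 3 NK cell markers all 3, were under 1 FPKM in every library. Of the 4 neutrophil markers in the files, the granule genes *Mpo* and *Elane* differed by replicate number in the effector libraries. *Mpo* was at 4.89, 2.46 and 3.02 FPKM in replicate 1 of Th1, Th2 and Th17 and at most 0.106 FPKM in replicate 2, and *Elane* was at 2.59, 3.71 and 3.6 FPKM in replicate 1 and listed at 0 in replicate 2. The part of these other cells in the differences below was not tested. In bulk samples, fewer cells of a type and less RNA per cell cannot be told apart.

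Member levels spanned a 46.2-fold range, from a mean of 3.79 FPKM for *Mrpl17* to 175 FPKM for *Mrpl52*. The median member had a mean of 24.1 FPKM, with 21.1 FPKM for *Mrpl* and 24.6 FPKM for *Mrps* genes. Only *Mrpl52*, *Mrpl33* and *Mrps21* had a mean of at least 100 FPKM, and 13 members were under 10 FPKM. The median coefficient of variation over the 8 libraries was 20.3%, so the typical member changed little beside this range of levels. *Mrps25* had the lowest mean among the *Mrps* genes, with its naïve libraries at 8.82 and 4.9 FPKM, Th1 at 6.18 and 6.26, Th2 at 5.7 and 4.94, and Th17 at 7.06 and 6.82. Its groups overlapped, and 4590 bases of its annotated exons lie opposite exons of *Nr2c2*, so its reads cannot be assigned with certainty. *Mrps21* had its naïve libraries at 131 and 85.4 FPKM, Th1 at 162 and 153, Th2 at 124 and 106, and Th17 at 175 and 159.97. Its naïve libraries differed more from each other than either differed from the Th2 libraries.

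The summed FPKM of the 76 members was 2202 and 1908 (naïve), 2519 and 2503 (Th1), 2148 and 1885 (Th2), and 2639 and 2682 (Th17). The naïve and Th2 libraries overlapped, and the Th1 and Th17 libraries lay above both. The group means were 2055 ± 208 FPKM for naïve, 2511 ± 11.3 for Th1, 2016 ± 186 for Th2 and 2660 ± 30.1 for Th17 (SD, n = 2). Members made up 0.426% to 0.556% of all FPKM. The *Mrpl* sum was 1.65 to 1.80 times the *Mrps* sum in every library, 1.65 and 1.68 in naïve libraries and 1.67 to 1.80 in effector libraries. The 5 highest members carried 22.9% to 23.8% of the sum in naïve and 26.7% to 30.6% in effector libraries.

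**Figure D1:**
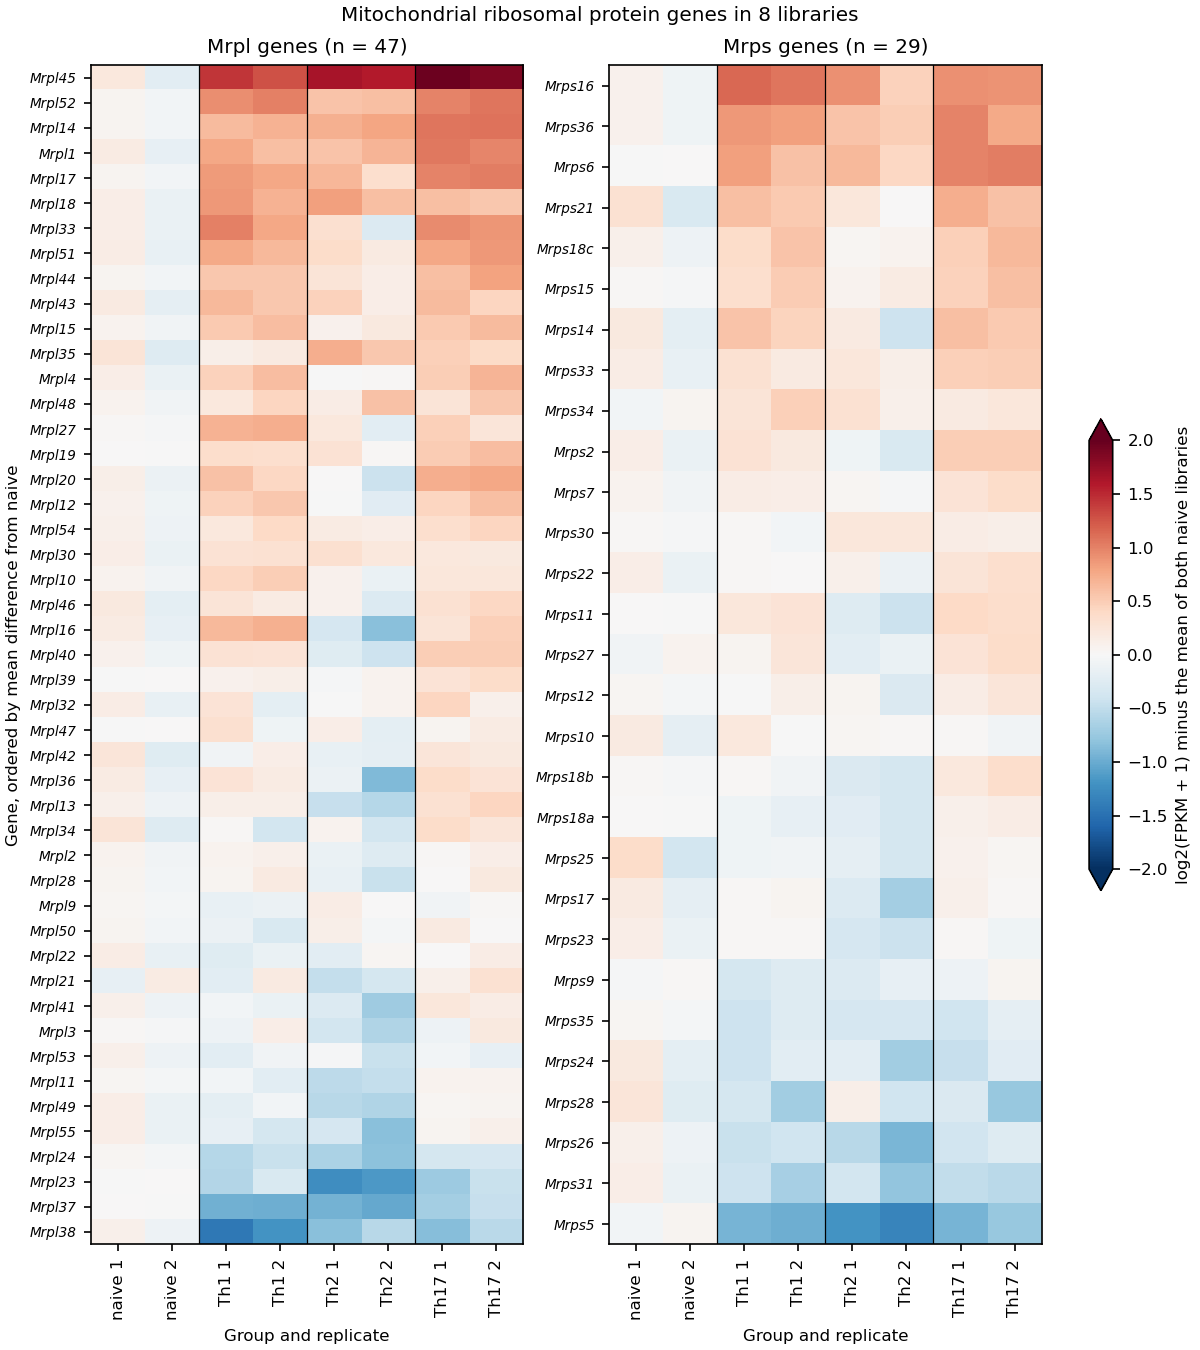
Heat map of the 47 *Mrpl* (left) and 29 *Mrps* genes (right) in the 8 libraries. Colour gives log2(FPKM + 1) minus the mean of both naïve libraries, from −2 (blue) to 2 (red), and genes are ordered by their mean difference from naïve; red rows at the top and blue rows at the bottom appear in both panels, and many middle rows are blue in Th2 only.

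The first comparison asks how mitochondrial ribosomal protein genes differ between resting naïve cells and each effector subset. They did not move as a block. In Th1, 29 members were higher and 9 lower than in naïve cells, against 33.8% and 33.5% of all 11198 genes tested (limma on log2(FPKM + 1), Benjamini-Hochberg adjusted p under 0.05). In Th17, 31 members were higher and 7 lower, against 37.5% and 29.8% of genes. In Th2, 11 members were higher and 21 lower, against 31.8% and 38.7%. As shares of the members these were 38.2% and 11.8% (Th1), 40.8% and 9.21% (Th17) and 14.5% and 27.6% (Th2), and whether they differ from the background shares was not tested. The median member differed from naïve by 0.13 in Th1, −0.11 in Th2 and 0.30 in Th17 on the log2 scale, beside −0.01, −0.11 and 0.08 over all genes tested. All 3 comparisons use the same naïve libraries, so they are not independent of each other.

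Both subunits had more members higher than lower in Th1 and Th17 and more lower than higher in Th2, as deposited. Of the 47 *Mrpl* genes, 21 were higher and 4 lower in Th1, 7 against 12 in Th2 and 19 against 4 in Th17. Of the 29 *Mrps* genes, 8 were higher and 5 lower in Th1, 4 against 9 in Th2 and 12 against 3 in Th17. For Th1, Th2 and Th17 respectively, the median difference was 0.21, −0.03 and 0.32 over *Mrpl* genes and 0.05, −0.14 and 0.20 over *Mrps* genes. Members with a bacterial homologue (46 genes) and those specific to mitochondria (30 genes) had median differences of 0.32 and 0.25 in Th17 and of −0.10 and −0.13 in Th2. Differences between these classes were not tested. The Th2 direction rested on single libraries, since without naïve replicate 1 the 76 members had 14 higher and 10 lower in Th2 (median 0.067) and without Th2 replicate 2 they had 10 and 9 (median 0.018).

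How the values are scaled bears on these counts. When libraries were scaled to the same median, the Th2 split turned from 11 higher and 21 lower to 19 and 10. All genes then had 35.7% higher and 34.0% lower. Under quantile normalization the split was 14 and 13, against 30.5% and 39.4% of all genes. In a voom fit on the fragments implied by the confidence intervals, chosen after seeing the data, it was 15 and 8, against 33.4% and 30.6%. In each of these settings members were called in either direction at a smaller share than all genes, a difference that was not tested. Members are short, with a median transcript length of 1038 bases against 2014 over all genes with a length. A correction for transcript length and GC content, likewise chosen after seeing the data, moved the medians of the members and of all genes down against naïve. It also centred the deviations of all genes to the same mean in each library. The part of this centring in the shift was not separated from that of length and GC content. The all-gene median became −0.19 in Th1, −0.20 in Th2 and −0.18 in Th17, and the members' median −0.11, −0.24 and −0.08. The members' median thus lay 0.08 above, 0.05 below and 0.09 above that of all genes. Quantile normalization, which has no length term, gave all-gene medians of −0.13, −0.13 and −0.12. Under the GC and length correction 16 members were higher and 29 lower in Th1, 10 against 35 in Th2 and 13 against 25 in Th17. Of all genes, 29.8%, 31.3% and 30.1% were higher and 44.2%, 44.7% and 43.6% lower. The direction of the members as a whole against naïve cells therefore changed with the scaling.

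**Figure D2:**
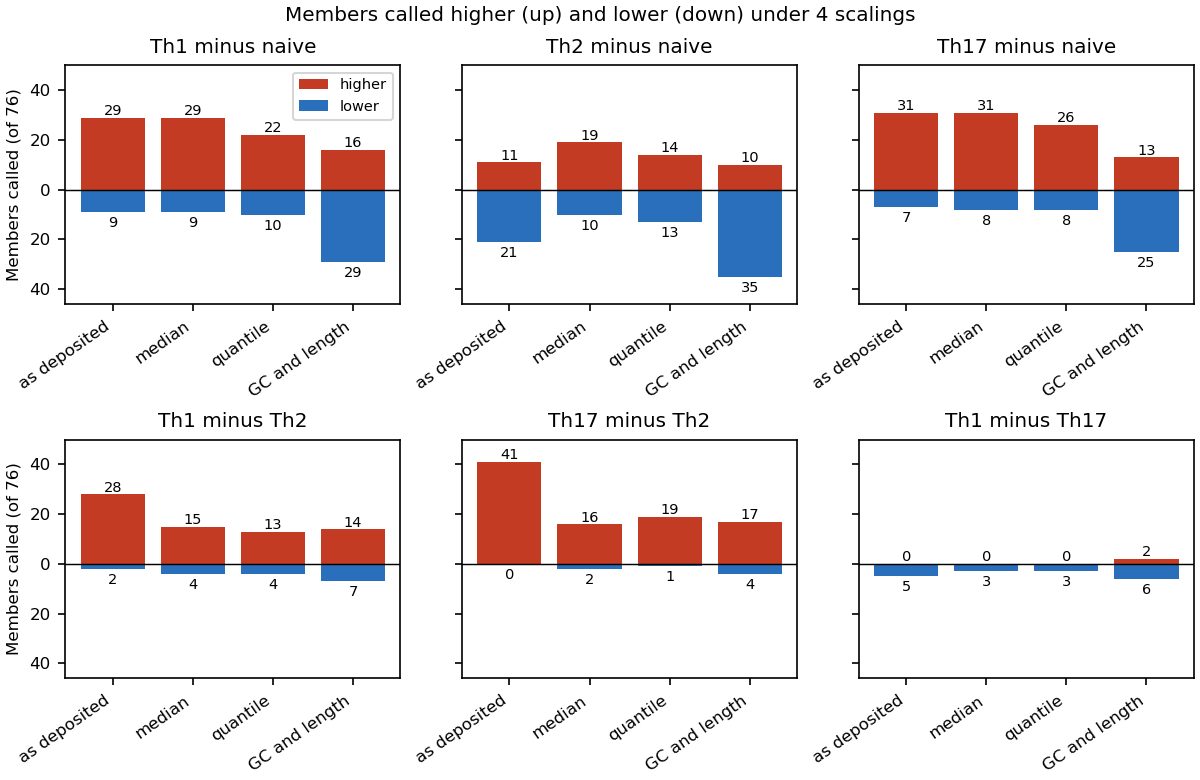
Number of the 76 members called higher (red, upward) and lower (blue, downward) in each of the 6 comparisons, with FPKM as deposited, scaled to equal medians, quantile normalized, and corrected for transcript length and GC content. The first 3 panels turn toward lower calls under the correction, such as 29 higher and 9 lower to 16 and 29 in Th1, while Th17 keeps more higher than lower calls against Th2 in each of these 4 settings.

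In all, 9 of the 76 members were called higher in all 3 subsets, against 24.8% of all genes, and 7 were called lower in all 3, against 23.8%. In 18 members all 6 effector libraries lay above both naïve libraries (30.5% of all genes did so), and in 9 members all 6 lay below (31.1%). Another 21 members were called in no comparison with naïve, against 14.4% of all genes, and 5 (*Mrpl13*, *Mrpl16*, *Mrpl40*, *Mrps11* and *Mrps18b*) were called higher in some subsets and lower in others, against 3.47%. The GC and length correction kept 8 of the 9 higher members (all but *Mrpl18*) and 7 of the 7 lower ones, and called 17 members lower in all 3. Median scaling kept all 9 higher members but lost *Mrps31* and *Mrps35* from the 7. Quantile normalization lost *Mrpl17* and *Mrps31*, and voom lost *Mrpl1*, *Mrpl24*, *Mrps31* and *Mrps35*. Each of these 3 settings added *Mrpl15*, *Mrpl44* and *Mrpl51* as higher and *Mrps26* as lower. Median scaling also added *Mrpl54* and *Mrps15* as higher. *Mrps26* was also among the 17 called lower under the correction. As deposited, it was at −0.42 in Th1, −0.73 in Th2 and −0.33 in Th17, and only the Th17 difference was not called. Its 6 effector libraries all lay below both naïve libraries.

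*Mrpl45*, whose protein anchors the ribosome to the inner membrane beside the exit tunnel, had the largest difference from naïve of any member. It had its naïve libraries at 6.78 and 4.77 FPKM, Th1 at 17 and 15.2, Th2 at 19.99 and 19.1, and Th17 at 25.1 and 23.4. All 6 effector libraries lay above both naïve libraries and the effector groups did not overlap each other. It exceeded naïve by 1.35 ± 0.15 in Th1, 1.62 ± 0.15 in Th2 and 1.91 ± 0.15 in Th17 on the log2(FPKM + 1) scale (± SE; limma, adjusted p = 0.000195, 6.74e-05 and 3.1e-05), or 2.79-, 3.39- and 4.2-fold in mean FPKM. The gene lies on chr11:97315716-97329920 (mm10), and its exons overlap no other annotated gene.

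*Mrps16*, for a core protein of the small subunit, had its naïve libraries at 59.8 and 53.3 FPKM, Th1 at 126 and 119.8, Th2 at 107 and 78.3, and Th17 at 107 and 107. The effector libraries were all higher than naïve and the 2 Th2 libraries were further apart than those of any other group. The differences were 1.11 ± 0.15 in Th1, 0.69 ± 0.15 in Th2 and 0.91 ± 0.15 in Th17 (limma, adjusted p = 0.000641, 0.00579 and 0.00165). *Mrpl52*, a protein found only in mitochondrial ribosomes, had its naïve libraries at 111 and 103 FPKM, Th1 at 205 and 216, Th2 at 160.4 and 164, and Th17 at 215 and 225. Both Th2 libraries lay between the naïve libraries and the Th1 and Th17 libraries. Its differences were 0.97 ± 0.10, 0.59 ± 0.10 and 1.03 ± 0.10 (limma, adjusted p = 0.000118, 0.00122 and 7.79e-05).

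*Mrpl14*, whose protein sits on the face of the large subunit that meets the small one, had its naïve libraries at 32.1 and 29.7 FPKM, Th1 at 48.7 and 50.8, Th2 at 51.2 and 54, and Th17 at 65.9 and 66.8. Replicates were close and Th17 stood above both other subsets, with differences of 0.67 ± 0.09, 0.75 ± 0.09 and 1.08 ± 0.09 in Th1, Th2 and Th17 (limma, adjusted p = 0.000473, 0.000238 and 3.98e-05). *Mrpl1*, for the protein of the flexible L1 stalk from which spent tRNAs leave, had its naïve libraries at 3.46 and 2.58 FPKM, Th1 at 5.81 and 5.07, Th2 at 4.93 and 5.42, and Th17 at 7.27 and 6.9. The Th1 and Th2 libraries overlapped, below Th17 and above naïve, and the Th17 difference was 1.02 ± 0.13 (limma, adjusted p = 0.000405). *Mrpl17*, the member with the lowest mean, had its naïve libraries at 2.2 and 1.99 FPKM, Th1 at 4.59 and 4.31, Th2 at 3.88 and 2.92, and Th17 at 5.12 and 5.31. Every effector library was above naïve, and because of the pseudocount of 1 the Th17 difference of 1.01 ± 0.12 (limma, adjusted p = 0.000326) understates its 2.49-fold ratio of mean FPKM.

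*Mrpl18*, for a protein of the central protuberance at the top of the large subunit, had its naïve libraries at 43.1 and 35.5 FPKM, Th1 at 72.6 and 64.3, Th2 at 69.7 and 59.9, and Th17 at 59.6 and 57.3. It was the 1 gene of the 9 with its highest mean in Th1 and its lowest effector mean in Th17, at 0.79 ± 0.13 and 0.57 ± 0.13 from naïve (limma, adjusted p = 0.00162 and 0.00753). Its Th17 call was lost under the GC and length correction, and 141 exon bases lie opposite *Tcp1*. *Mrps6*, for a platform protein of the small subunit, had its naïve libraries at 17.7 and 17.8 FPKM, Th1 at 32.1 and 27.2, Th2 at 28.6 and 23.9, and Th17 at 36.5 and 37.2. The naïve libraries were nearly equal and lay below all others, but 464 exon bases overlap *Slc5a3* and a predicted gene on the same strand. *Mrps36*, the gene no longer counted with the ribosome, had its naïve libraries at 18.2 and 15.9 FPKM, Th1 at 32.1 and 30.9, Th2 at 25.9 and 24.5, and Th17 at 34.9 and 29.7, with Th17 0.88 ± 0.11 above naïve (limma, adjusted p = 0.000409). It also shares 17.3% of its 50-base words with other genes, its pseudogenes among them.

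The 7 members that were lower in all 3 subsets include 2 from the exit tunnel and 3 from the small subunit. *Mrps5*, for a small subunit protein at the mRNA entry site that bears on decoding accuracy, had its naïve libraries at 19.1 and 20.6 FPKM, Th1 at 9.97 and 9.62, Th2 at 8.12 and 7.31, and Th17 at 9.91 and 11.2. The naïve libraries lay far above all effector libraries, and Th2 was lowest. The differences were −0.95 ± 0.10 in Th1, −1.26 ± 0.10 in Th2 and −0.85 ± 0.10 in Th17 (limma, adjusted p = 0.000161, 3.36e-05 and 0.000264). *Mrpl38*, for a mitochondria-specific protein of the central protuberance, had its naïve libraries at 26.7 and 23.2 FPKM, Th1 at 8.6 and 10.3, Th2 at 13.5 and 16.6, and Th17 at 13.3 and 16.8. It was lowest in Th1, where both libraries lay below every other library, with differences of −1.31 ± 0.16, −0.70 ± 0.16 and −0.70 ± 0.16 (limma, adjusted p = 0.00032, 0.00626 and 0.00666).

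*Mrpl37*, another mitochondria-specific large subunit gene, had its naïve libraries at 28.7 and 28.4 FPKM, Th1 at 14.2 and 14.1, Th2 at 14.4 and 13.5, and Th17 at 17.4 and 20.5. Th1 and Th2 overlapped and Th17 lay between them and naïve, with differences of −0.97 ± 0.10, −0.98 ± 0.10 and −0.57 ± 0.10 (limma, adjusted p = 0.000141, 0.00011 and 0.00186). *Mrpl23*, for an exit tunnel protein, had its naïve libraries at 44.4 and 44.5 FPKM, Th1 at 29.1 and 36, Th2 at 18.1 and 19.4, and Th17 at 26.5 and 32.3. Both Th2 libraries lay below every other library, −1.20 ± 0.14 from naïve (limma, adjusted p = 0.000197). *Mrpl24*, for the other exit tunnel protein of the group, had its naïve libraries at 102 and 98 FPKM, Th1 at 67.3 and 73.3, Th2 at 64.6 and 56.5, and Th17 at 78 and 78.9, a difference of −0.72 ± 0.10 in Th2 (limma, adjusted p = 0.000637). Here 594 exon bases lie opposite *Rrnad1*.

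*Mrps31* had its naïve libraries at 10.9 and 8.86 FPKM, Th1 at 7.13 and 5.83, Th2 at 7.37 and 5.28, and Th17 at 6.71 and 6.5. *Mrps35* had its naïve libraries at 26.7 and 25.4 FPKM, Th1 at 19.3 and 21.5, Th2 at 20.4 and 20.4, and Th17 at 19.5 and 22.9. Both encode mitochondria-specific small subunit proteins, all effector libraries lay below naïve, and the widest gaps were −0.58 in Th2 for *Mrps31* and −0.34 in both Th1 and Th2 for *Mrps35*. These calls were the least firm of the 7. Leaving out 1 library at a time, the call in all 3 subsets was lost for *Mrps35* whichever library was left out, except for Th17 replicate 2, and for *Mrps31* without naïve replicate 1, Th1 replicate 2, Th2 replicate 2 or either Th17 library. Without naïve replicate 1, only *Mrps5*, *Mrpl37* and *Mrpl38* were still called lower in all 3 subsets and 14 members were called higher in all 3. Without Th17 replicate 1, 4 were called lower in all 3.

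**Figure D3:**
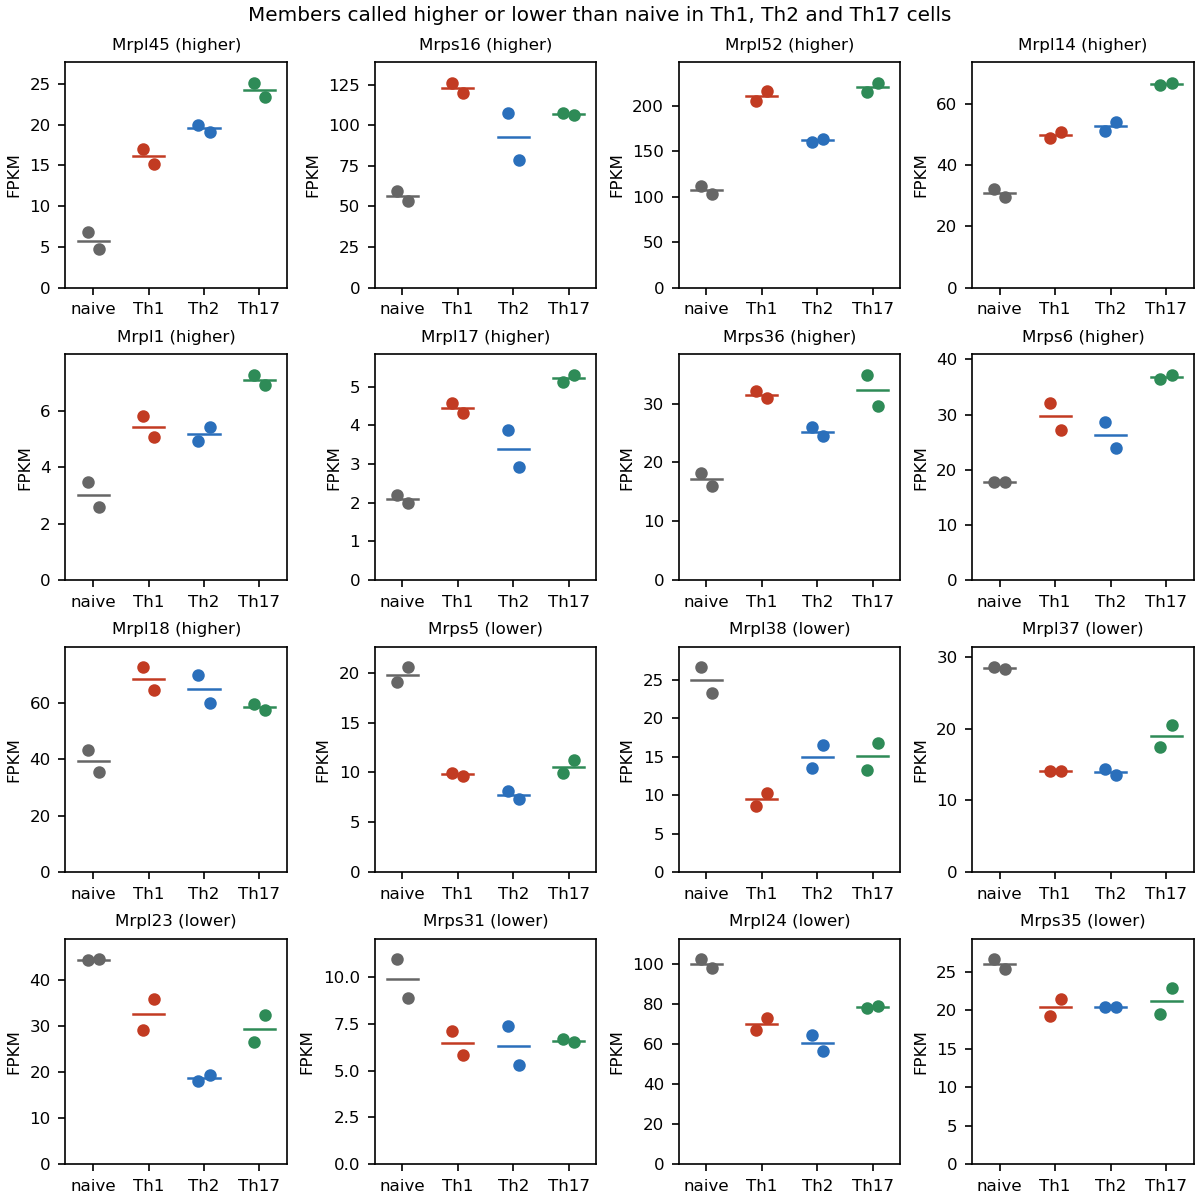
FPKM of the 9 members called higher and the 7 called lower than naïve in Th1, Th2 and Th17, 1 panel per gene with its own axis from 0. Points are the 2 libraries of each group and lines are group means; *Mrpl45* rises from 6.78 and 4.77 FPKM in naïve to 25.1 and 23.4 FPKM in Th17, and in *Mrps35* the gap between naïve and effector libraries is narrow.

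Upstream sequence was examined for the members because they share a function and are read from scattered loci. RefSeq windows on GRCm38.p6 from 250 bases before to 50 bases after the start were found for 67 of the 76 members. For a member the start nearest to that of its locus in the deposited values was taken, and for other genes the first one listed. The shares below are therefore not drawn in the same way. On both strands, the ETS family motif CCGGAAG was present in 23 windows (34.3%) against 9.12% of 27025 windows of all genes and 19.9% of the 7899 windows of genes tested. The NRF1 motif GCGCATG was present in 8 windows (11.9%, against 4.04% and 7.72%) and the YY1 motif AAGATGG in 13 (19.4%, against 6.48% and 7.65%). The E-box CACGTG was present in 5 windows (7.46%, against 7.24% and 10.8%) and TATAAA in 4 (5.97%, against 14.2% and 6.63%). At least 1 of the first 3 motifs occurred in 35 windows (52.2%, against 31.3% of genes tested). Letters that match a motif are no evidence of binding. Of the 9 members higher in all 3 subsets, 4 windows held the ETS motif (*Mrpl17*, *Mrpl18*, *Mrpl52* and *Mrps16*), and of the 5 lower members with a window, 0 did.

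The 250 bases before the start are shown for the 4 members called higher and the 1 called lower in all 3 subsets whose stretches hold at most 20 bases of an annotated exon of any gene, with every match to any of the 5 motifs, on either strand, in capitals. *Mrpl45* (chr11:97315466-97315715, plus strand), *Mrps36* (chr13:100744660-100744909, minus strand) and the lower member *Mrpl23* (chr7:142532782-142533031, plus strand) hold no match. *Mrpl17* (chr7:105811088-105811337, minus strand) holds an ETS match at the far end and an NRF1 match close to the start. *Mrpl52* (chr14:54426659-54426908, plus strand) holds a YY1 and then an ETS match, the latter on the opposite strand.
Mrpl45: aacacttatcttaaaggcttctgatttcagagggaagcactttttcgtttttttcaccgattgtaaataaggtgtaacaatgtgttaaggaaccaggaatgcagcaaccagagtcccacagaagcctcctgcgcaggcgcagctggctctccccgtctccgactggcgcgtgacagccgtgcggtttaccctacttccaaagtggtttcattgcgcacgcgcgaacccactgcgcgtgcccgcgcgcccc
Mrpl17: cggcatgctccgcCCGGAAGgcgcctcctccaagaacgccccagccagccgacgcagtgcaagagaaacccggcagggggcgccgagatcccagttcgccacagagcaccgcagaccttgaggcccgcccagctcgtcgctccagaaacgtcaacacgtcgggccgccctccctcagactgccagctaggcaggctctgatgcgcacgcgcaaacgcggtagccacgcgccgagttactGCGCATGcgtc
Mrpl52: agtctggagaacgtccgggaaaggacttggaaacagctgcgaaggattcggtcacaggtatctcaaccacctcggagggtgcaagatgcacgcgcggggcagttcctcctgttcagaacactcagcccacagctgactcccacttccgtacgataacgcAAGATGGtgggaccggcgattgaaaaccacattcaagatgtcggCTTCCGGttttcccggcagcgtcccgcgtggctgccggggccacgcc
Mrps36: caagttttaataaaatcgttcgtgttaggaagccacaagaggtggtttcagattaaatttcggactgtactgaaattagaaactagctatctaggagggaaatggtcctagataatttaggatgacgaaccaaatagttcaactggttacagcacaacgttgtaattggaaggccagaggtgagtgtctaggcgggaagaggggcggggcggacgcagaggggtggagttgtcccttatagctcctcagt
Mrpl23: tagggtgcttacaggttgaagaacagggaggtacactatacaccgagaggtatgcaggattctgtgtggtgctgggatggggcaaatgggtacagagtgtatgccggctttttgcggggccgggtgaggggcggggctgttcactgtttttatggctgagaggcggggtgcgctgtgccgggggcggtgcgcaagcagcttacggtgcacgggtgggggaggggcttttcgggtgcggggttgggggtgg

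Genes for neighbouring proteins did not share 1 direction. Of the 6 exit tunnel genes, *Mrpl45* and *Mrpl17* were higher and *Mrpl23* and *Mrpl24* lower in all 3 subsets, while *Mrpl22* (−0.19, −0.09 and 0.08) and *Mrpl47* (0.12, −0.03 and 0.10) were not called in any. Within the central protuberance (7 genes), *Mrpl18* was higher and *Mrpl38* lower in all 3. The stalk that recruits translation factors is built on MRPL10 and carries copies of MRPL12, with MRPL11 at its base. *Mrpl12* had its naïve libraries at 41.8 and 36.6 FPKM, Th1 at 54.2 and 57, Th2 at 38.8 and 33.2, and Th17 at 52.8 and 60.1. *Mrpl10* had its naïve libraries at 33.2 and 30.2 FPKM, Th1 at 42.7 and 45, Th2 at 33.8 and 28.9, and Th17 at 37.2 and 37.4. Both were high in Th1, and in both genes the naïve and Th2 libraries overlapped. *Mrpl11* was far lower in level and had its naïve libraries at 6.53 and 6.11 FPKM, Th1 at 6.03 and 5.35, Th2 at 4.12 and 4.28, and Th17 at 6.69 and 6.67. Both of its Th2 libraries lay below all others. All 3 stalk genes were lower in Th2 than in Th1, by 0.62, 0.48 and 0.36 for *Mrpl12*, *Mrpl10* and *Mrpl11* (limma, adjusted p = 0.00692, 0.011 and 0.0175).

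Vertebrates have 3 mitochondrial relatives of bacterial S18, which occupy different sites. *Mrps18c*, the relative in the bacterial position, had its naïve libraries at 29.9 and 25.6 FPKM, Th1 at 36.1 and 41.6, Th2 at 28.6 and 29, and Th17 at 39 and 44. *Mrps18b*, of the small subunit, had its naïve libraries at 26.3 and 25.4 FPKM, Th1 at 26.2 and 24.6, Th2 at 21.1 and 20.1, and Th17 at 30.1 and 33.2. *Mrps18a*, of the large subunit, had its naïve libraries at 30.4 and 30.1 FPKM, Th1 at 28.4 and 27, Th2 at 25.7 and 23.4, and Th17 at 32.7 and 33.8. Th2 libraries were the lowest in *Mrps18a* and *Mrps18b*, whereas in *Mrps18c* naïve and Th2 libraries were similar. Th17 exceeded Th2 in all 3, by 0.51 ± 0.12, 0.60 ± 0.09 and 0.42 ± 0.09 for *Mrps18c*, *Mrps18b* and *Mrps18a* (limma, adjusted p = 0.0143, 0.00258 and 0.0084). Against naïve, *Mrps18b* was called lower in Th2 (−0.32) and higher in Th17 (0.28). The latter value became −0.15 under the GC and length correction, and 638 exon bases of *Mrps18b* lie opposite a predicted gene.

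The second comparison asks whether the effector subsets differ from each other. Many members were lower in Th2 than in Th1 or Th17 cells and few were higher. Between Th1 and Th2, 28 members were higher in Th1 and 2 in Th2, against 27.4% and 16.9% of genes, with a median difference of 0.29 (all genes 0.11). Between Th17 and Th2, 41 members were higher in Th17 and 0 in Th2, against 31.7% and 12% of genes, with a median of 0.39 (all genes 0.18). Between Th1 and Th17, 0 members were higher in Th1 and 5 in Th17, against 9.17% and 16%, with a median of −0.12 (all genes −0.08). At an unadjusted p under 0.05 in limma, 0 members were higher in Th2 than in Th17 and 0 higher in Th1 than in Th17. By group mean, 48 members had their highest level in Th17, 13 in Th1, 12 in naïve and 3 in Th2, and 38 had their lowest in Th2, 29 in naïve, 8 in Th1 and 1 in Th17. Both Th17 libraries lay above both Th2 libraries in 57 members (52.3% of all genes did so), both Th1 above both Th2 in 47 (45.2%) and both Th17 above both Th1 in 40 (40%).

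The gap to Th2 and the counts of members called depended on scaling. The gap also changed with the Th2 library left out, but little with a Th1 or Th17 library left out. With medians equalized, 15 members were higher in Th1 than in Th2 and 4 lower (22.7% and 20.3% of all genes). In Th17, 16 were higher than in Th2 and 2 lower (20.6% and 18.02%). Under quantile normalization these counts were 13 and 4 (21.6% and 20.9% of all genes), and 19 and 1 (20.1% and 19.6%). Under the GC and length correction they were 14 and 7 (25.1% and 23.8%), and 17 and 4 (22.1% and 22.4%). The share of members called higher was near or under that of all genes, except in Th17 under quantile normalization. The share called lower was under it each time. The median member stayed above the all-gene median by 0.15 to 0.22 in each of these settings. Without Th2 replicate 2 the median difference from Th2 was 0.15 in Th1 and 0.31 in Th17 (all genes 0.09 and 0.17). Without Th2 replicate 1 it was 0.33 and 0.45 (all genes 0.12 and 0.20). Without Th1 replicate 1 or 2 the Th1 median was 0.28 each time, beside 0.29 with all libraries. Without Th17 replicate 1 or 2 the Th17 median was 0.38 or 0.37, beside 0.39 with all libraries.

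**Figure D4:**
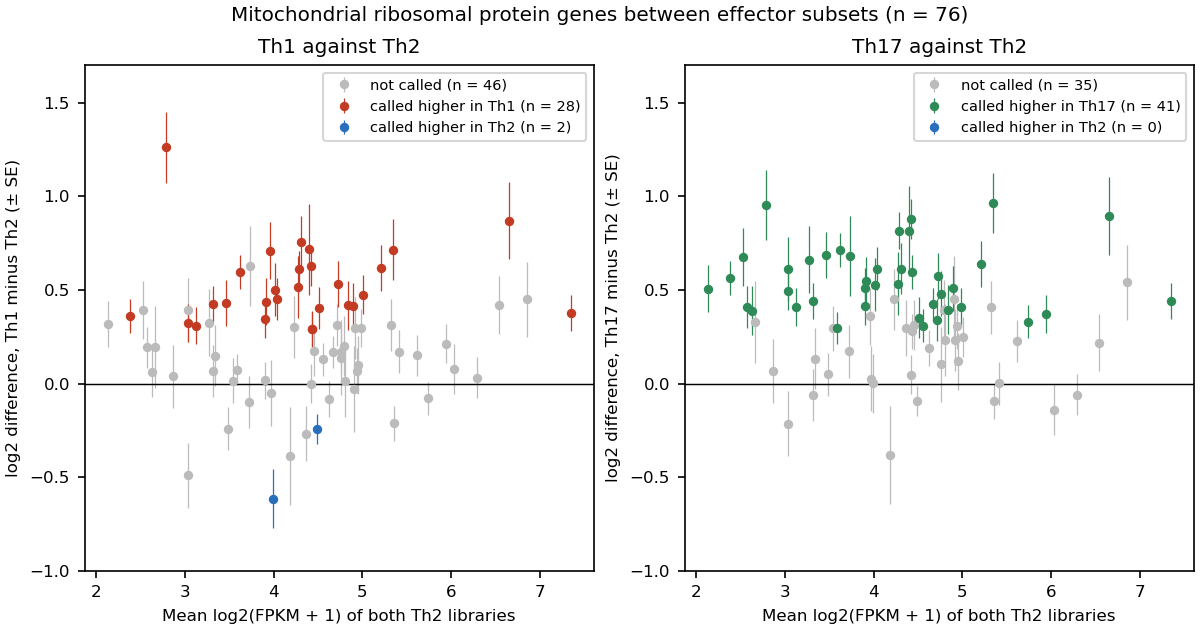
Difference of each of the 76 members between Th1 and Th2 (left) and Th17 and Th2 (right) on the log2(FPKM + 1) scale, with its standard error, against the mean level in the 2 Th2 libraries. Red and green points are members called higher in Th1 (28) and Th17 (41), blue points are members called higher in Th2 (2 and 0), and grey points are not called.

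*Mrpl16*, for a large subunit protein near the peptidyl transferase centre, showed the widest gap between subsets. It had its naïve libraries at 10.5 and 8.2 FPKM, Th1 at 15.1 and 15.8, Th2 at 7.16 and 4.8, and Th17 at 11.3 and 13.4. Both Th2 libraries were the lowest of the 8, below naïve, and both Th1 libraries the highest. Th1 exceeded Th2 by 1.26 ± 0.19 and Th17 exceeded it by 0.96 ± 0.19 (limma, adjusted p = 0.00204 and 0.00726). *Mrpl20*, whose bacterial relative acts early in large subunit assembly, had its naïve libraries at 49.9 and 42.7 FPKM, Th1 at 69.9 and 62, Th2 at 46.3 and 34, and Th17 at 77.2 and 79.6. Naïve and Th2 libraries overlapped, and Th1 and Th17 lay above them, 0.72 ± 0.16 and 0.96 ± 0.16 over Th2 (limma, adjusted p = 0.0114 and 0.00385).

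*Mrpl33*, after *Mrpl52* the highest member by mean level, had its naïve libraries at 109 and 89.6 FPKM, Th1 at 199 and 169, Th2 at 123 and 81.2, and Th17 at 192 and 182. The Th2 libraries spanned the naïve ones, and Th1 and Th17 lay well above both, 0.87 ± 0.21 and 0.89 ± 0.21 over Th2 (limma, adjusted p = 0.0143 and 0.0136). *Mrpl49* had its naïve libraries at 25.9 and 21.2 FPKM, Th1 at 20.4 and 22.5, Th2 at 15.7 and 15.2, and Th17 at 24 and 24.3. *Mrpl55* had its naïve libraries at 15 and 12.2 FPKM, Th1 at 11.9 and 10.3, Th2 at 10.5 and 7.14, and Th17 at 14.1 and 14.5. In both, Th2 was the lowest group, below Th17 by 0.61 and 0.66 (limma, adjusted p = 0.00563 and 0.0235) and at −0.57 and −0.59 from naïve (limma, adjusted p = 0.00325 and 0.022). *Mrpl49* was also higher in Th1 than in Th2, by 0.45 (limma, adjusted p = 0.0175), and neither gene was called between Th17 and naïve. *Mrps30* went the other way, with its naïve libraries at 18.6 and 17.9 FPKM, Th1 at 18.5 and 17.5, Th2 at 21.5 and 21.4, and Th17 at 20.3 and 19.9. Its 2 Th2 libraries were the highest of the 8, 0.23 above naïve and with Th1 at −0.24 from Th2 (limma, adjusted p = 0.0379 and 0.0446). The other member higher in Th2 than in Th1 was *Mrpl38*. The 5 members higher in Th17 than in Th1 were *Mrpl14*, *Mrpl37*, *Mrpl38*, *Mrpl45* and *Mrps18b*.

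Some values could include reads of other genes. By the GENCODE annotation, 32 members share exon bases with another gene, 27 of them on the opposite strand, and 11 members have over 20% of their 50-base words in other genes. *Mrpl46* and *Mrps11* overlap each other by 173 bases on opposite strands. *Mrps34* shares 1309 exon bases with *Mapk8ip3* and 763 with *Nme3*, and had its naïve libraries at 34.9 and 37.5 FPKM, Th1 at 43.6 and 50.7, Th2 at 44.7 and 38.9, and Th17 at 41 and 42.5. *Mrpl19*, 1962 of whose exon bases lie opposite *Gcfc2*, had its naïve libraries at 4.38 and 4.34 FPKM, Th1 at 5.84 and 5.79, Th2 at 5.53 and 4.44, and Th17 at 6.61 and 7.24. The effector libraries of both genes were above the naïve ones, by 0.37 and 0.35 in Th1 (limma, adjusted p = 0.0245 and 0.0271), but the *Mrps34* difference became −0.013 under the GC and length correction. Of the 32 overlapping members 3 were higher and 1 lower in all 3 subsets, and of the 44 others 6 were higher and 6 lower. *Mrpl48* carried a failed estimation status in Th1 replicate 1, where its value was 13.0 FPKM against 10.5 to 17.1 FPKM elsewhere, and it was not called against naïve in any subset.

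Ribosome assembly needs GTPases and methyltransferases, and translation needs factors and charged tRNAs. Of 23 genes of mitoribosome assembly and rRNA modification, 4 were higher and 14 lower in Th1 (17.4% and 60.9%). The counts were 2 and 14 in Th2 (8.70% and 60.9%), and 4 and 10 in Th17 (17.4% and 43.5%). Over all genes tested, 33.8%, 31.8% and 37.5% were higher and 33.5%, 38.7% and 29.8% lower in Th1, Th2 and Th17. The median differences of the 23 genes were −0.53, −0.74 and −0.31. *Mettl17*, a factor for the small subunit, had its naïve libraries at 34 and 37.1 FPKM, Th1 at 10.2 and 13.1, Th2 at 8.49 and 9.1, and Th17 at 12.9 and 13.9. *Gtpbp5*, a GTPase that acts on the large subunit, had its naïve libraries at 20.4 and 19.5 FPKM, Th1 at 7.86 and 7.71, Th2 at 5.62 and 5.37, and Th17 at 9.23 and 10.01. In both, every effector library was far below naïve, with Th2 at −1.90 and −1.69 from it (limma, adjusted p = 1.45e-05 and 3.45e-06). *2410003K15Rik* (*Malsu1*), whose protein binds MRPL14 on the large subunit, had its naïve libraries at 11.2 and 11.3 FPKM, Th1 at 22.5 and 22.6, Th2 at 29.3 and 23, and Th17 at 24.5 and 30.4. It was above naïve in all 6 effector libraries, as *Mrpl14* was, by 0.94, 1.13 and 1.21 (limma, adjusted p = 0.00098, 0.000347 and 0.000276).

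Of 7 further genes for ribosome subunits with other names, 1 was higher and 2 lower in Th1 (14.3% and 28.6%), 0 against 3 in Th2 (0% and 42.9%) and 3 against 1 in Th17 (42.9% and 14.3%). *Ict1* (*Mrpl58*), a large subunit protein that frees stalled chains, had its naïve libraries at 58.7 and 55.8 FPKM, Th1 at 27.4 and 33.9, Th2 at 20.3 and 22.3, and Th17 at 26.4 and 26.6. It was lower in every effector library than in naïve, with differences of −0.89, −1.39 and −1.08 (limma, adjusted p = 0.000503, 4.73e-05 and 0.000175). Of 15 translation factor and membrane insertion genes, 3 were higher and 6 lower in Th1 (20% and 40%), 1 against 5 in Th2 (6.67% and 33.3%) and 5 against 1 in Th17 (33.3% and 6.67%). *Oxa1l*, the insertase that receives new chains at the tunnel exit where MRPL45 lies, had its naïve libraries at 22.8 and 25.6 FPKM, Th1 at 33.3 and 36.2, Th2 at 45 and 54.8, and Th17 at 43.6 and 47.7. It was above naïve in all 6 effector libraries, with a largest difference of 1.01 in Th2 (limma, adjusted p = 0.000318). In this list 1 gene was called higher and 1 lower in all 3 subsets, the latter being *Mtif3*. Of 19 mitochondrial aminoacyl-tRNA synthetase genes, 1 was higher and 9 lower in Th1 (5.26% and 47.4%). The counts were 3 and 9 in Th2 (15.8% and 47.4%), and 2 and 5 in Th17 (10.5% and 26.3%). In all 3 subsets, 1 was higher and 3 lower. In Th1, Th2 and Th17, *Hars2* stood at −1.01, −1.21 and −0.85 from naïve and *Ears2* at −1.02, −1.46 and −0.74. Over all genes tested, 33.8%, 31.8% and 37.5% were higher and 33.5%, 38.7% and 29.8% lower in these subsets. Whether the lists differ from these shares was not tested.

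Of the 7 tested genes for transcription and replication of mitochondrial DNA, 7 were lower than naïve in Th1, 5 in Th2 and 4 in Th17, and 0 were higher. The shares of all genes that were lower were 33.5%, 38.7% and 29.8%, and those higher 33.8%, 31.8% and 37.5%. *Polrmt*, the mitochondrial RNA polymerase, had its naïve libraries at 11.8 and 15.2 FPKM, Th1 at 3.75 and 4.28, Th2 at 4.67 and 4.92, and Th17 at 5.38 and 7.02, at −1.52, −1.31 and −1.01 from naïve (limma, adjusted p = 0.000132, 0.000241 and 0.000987). Of the 8 tested regulators of mitochondrial genes, 1 was higher and 5 lower in Th1 (12.5% and 62.5%), and 2 were higher and 5 lower in Th2 and likewise in Th17 (25% and 62.5%). Among them *Myc*, known to drive ribosomal and mitochondrial genes in activated T cells, had its naïve libraries at 33.5 and 31.4 FPKM, Th1 at 216 and 227, Th2 at 82.6 and 70.8, and Th17 at 145 and 162. It was lowest in naïve and, among effector cells, lowest in Th2. *Esrra*, a nuclear receptor for respiratory genes, had its naïve libraries at 16.6 and 15.5 FPKM, Th1 at 9.19 and 10.6, Th2 at 7.87 and 8.16, and Th17 at 9.39 and 9.999 and was below naïve in all 6 effector libraries.

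For scale, 83 cytosolic ribosomal protein genes, 77 of them tested, and 82 nuclear genes for oxidative phosphorylation, 78 of them tested, were fitted in the same model. The cytosolic genes had 20 higher and 3 lower in each subset (26.0% and 3.9%), with median differences of 0.16, 0.20 and 0.16 in Th1, Th2 and Th17. Over all genes tested, 33.8%, 31.8% and 37.5% were higher and 33.5%, 38.7% and 29.8% lower. Between Th1 and Th2 only 1 of the cytosolic genes was higher and 2 lower, beside 28 and 2 of the 76 members and 27.4% and 16.9% of all genes. The oxidative phosphorylation genes had 47 higher and 2 lower in Th1 (60.3% and 2.56%), 27 against 8 in Th2 (34.6% and 10.3%) and 55 against 0 in Th17 (70.5% and 0%). Their medians were 0.48, 0.24 and 0.49. Between Th17 and Th2, 23 were higher and 2 lower, beside 41 and 0 of the members. Transcripts of the cytosolic and oxidative phosphorylation genes are shorter than the members', with medians of 689 and 655 bases, and the lists were not recomputed with the length correction. Differences between these lists and the members were not tested. Of the 13 protein genes of mitochondrial DNA itself, looked up by symbol, 0 were found among the deposited genes, so they could not be analysed.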

How the data were processed

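The deposited gene tables of 8 RNA sequencing libraries, 2 each of naïve, Th1, Th2 and Th17 CD4 T cells, were re-analysed. Per the methods and processing notes, the authors aligned 50-base reads to mm10 with Bowtie 0.12.8 and TopHat 1.3.2 and computed FPKM per gene with Cufflinks 2.0.2. The gene annotation is not given in the sources used here. The methods name a kit that does not keep strand and the labels a stranded one, so genes that overlap on opposite strands may share reads. The deposited FPKM values carry a confidence interval and a status, and hold no read counts. Fragments per library were implied from interval widths on the assumption that these hold counting error only. For some genes, such as *Mrpl24* and *Mrpl19*, implied fragments did not follow FPKM, so they are not counts of fragments.

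Rows were summed by symbol. Values were tested as log2(FPKM + 1) for the 11198 of 23284 genes that averaged 1 FPKM or more, in 1 limma fit (version 3.58.1, R 4.3.3, lmFit, then eBayes with trend) with 4 group means over all 8 libraries. Tests were two-sided, and p-values were adjusted over all genes tested by the Benjamini-Hochberg method at a threshold of 0.05. The fold changes on this scale understate those of low genes. On values simulated for Th1 against naïve (11198 genes, 200 changed by 1 on the log2 scale), 71.5% of changed genes were recovered and 6.54% of calls were false. Of 200 genes changed by 0.5, 0% were recovered. In the data, 33.8% of genes were called higher and 33.5% lower in Th1. The adjusted threshold is stricter where few genes change, so the simulated rates do not describe the calls reported here. Differences under 0.5 were called in the data, such as 0.23 for *Mrps30* in Th2 against naïve.

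Members were taken by symbol, and members and gene lists were chosen with earlier results of these data known. Named members are those with the highest and lowest levels, the largest differences in each comparison, and the S18 relatives, *Mrps30* and the stalk genes. Of each other list, the rule takes the genes with the largest difference shared by all 3 subsets, and not all of them are described. *Qrsl1*, *Polg2* and *Ppargc1b* are among those left out. *Mrps6*, *Mrps35*, *Mrpl22*, *Mrpl47*, *Mrpl13*, *Mrpl40*, *Mrps11*, *Mrpl46*, *Mrpl48*, *Mrpl15*, *Mrpl44*, *Mrpl51* and *Mrpl54* fall outside the rule and were named after seeing their values. Gene overlaps and lengths came from GENCODE M21 and upstream windows from RefSeq, both on GRCm38, the build called mm10; all 76 members overlapped the annotated gene of the same symbol. Alternatives covered the pseudocount, the filter, scaling, the samples fitted, the trend, a replicate block, and each library left out. A voom fit on implied fragments with median-ratio scaling, a fit of genes with an OK status only, and a GC and length correction (10158 genes) were chosen after seeing the data. The GC and length correction also centres each library.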

Additional observations from a re-analysis of the deposited data

Results flagged for a closer look

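Of the 34 members that the rule names, 26 differed between 2 effector subsets by a test of the difference itself (limma on log2(FPKM + 1), adjusted p under 0.05), and for each the tested pair with the largest difference is given. Many of the 34 were named for the size of such differences, and over all 76 members 47 differed between at least 1 pair of subsets, against 59.9% of all genes tested. Values are log2 differences. Th17 exceeded Th2 by 0.96 for *Mrpl20*, 0.89 for *Mrpl33*, 0.66 for *Mrpl55*, 0.64 for *Mrpl12*, 0.61 for *Mrpl49*, 0.60 for *Mrps18b*, 0.56 for *Mrpl11*, 0.51 for *Mrpl17*, 0.51 for *Mrps18c* and 0.50 for *Mrps27*. Smaller gaps in the same direction were 0.44 for *Mrpl52*, 0.42 for *Mrps18a*, 0.41 for *Mrpl37*, *Mrps5*, *Mrps15* and *Mrpl19*, 0.39 for *Mrpl1*, 0.37 for *Mrpl24* and 0.34 for *Mrps36*.

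Th1 exceeded Th2 by 1.26 for *Mrpl16*, 0.76 for *Mrpl23* and 0.48 for *Mrpl10*. *Mrps30* was the 1 named member whose widest gap put Th2 on top, with Th1 at −0.24 from Th2. Between Th1 and Th17 the widest gaps were −0.61 for *Mrpl38*, −0.56 for *Mrpl45* and −0.41 for *Mrpl14*, all with Th17 above Th1. With 2 libraries per group, no test for a library far from its group could be made.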

How the results depend on the processing

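Counts of members are given as higher and lower in each comparison as deposited, 29 and 9 (Th1 against naïve), 11 and 21 (Th2 against naïve), 31 and 7 (Th17 against naïve), 28 and 2 (Th1 against Th2), 41 and 0 (Th17 against Th2), 0 and 5 (Th1 against Th17), 9 and 7 (all 3 subsets). A pseudocount of 0.1, both other filters, the highest row per symbol and the fit of genes with an OK status moved none of these by over 1.5 times. Median scaling gave 19 and 10 for Th2 against naïve, 15 and 4 for Th1 and 16 and 2 for Th17 against Th2, 3 lower in Th1 than in Th17, and 14 higher in all 3. Quantile normalization gave 13 lower in Th2 than in naïve, 13 and 4, and 19 and 1 against Th2, and 3 lower in Th1 than in Th17. Fitting only the groups compared gave 12 lower in Th2 than in naïve and 2 lower in Th1 than in Th17, and no trend gave 1 lower in Th1 than in Th2. Voom gave 8 lower in Th2 than in naïve, 11 and 4, and 11 and 2 against Th2, and 0 lower in Th1 than in Th17. The GC and length correction gave 16 and 29 for Th1, 35 lower for Th2 and 13 and 25 for Th17 against naïve, 14 and 7, and 17 and 4 against Th2, 2 higher in Th1 than in Th17, and 17 lower in all 3. Shares of all genes also changed with the setting and with the library left out. Those for Th2 against naïve are given above for median scaling, quantile normalization, voom and the GC and length correction. Beyond the effect of scaling, the cause of these changes was not tested.

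Replicate differences correlated between all 6 pairs of groups (r = 0.14 to 0.29 over all genes and 0.32 to 0.62 over the 76 members, which share libraries and are not independent). The deviations of equal numbers thus went together, but with 2 numbers per group and no label that says what a number stands for, the libraries were not treated as paired. Adding the replicate number as a block, the calls changed to 5 lower in Th1 than in Th2, 1 lower in Th17 than in Th2 and 9 lower in Th1 than in Th17, and no other count moved by over 1.5 times. The block with the GC and length correction gave 17 and 33 for Th1, 36 lower for Th2 and 17 and 27 for Th17 against naïve, 8 lower in Th1 and 26 higher and 5 lower in Th17 against Th2, 5 and 8 between Th1 and Th17, and 22 lower in all 3.

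Leaving out 1 library at a time gave, against naïve, 17 to 30 higher and 4 to 9 lower for Th1, 9 to 25 lower for Th2 and 4 to 7 lower for Th17. It gave 8 to 25 higher and 0 to 2 lower for Th1 against Th2, 9 to 45 higher for Th17 against Th2, 0 to 4 lower in Th1 than in Th17, and 9 to 14 higher and 3 to 7 lower in all 3. Against naïve, counts moved by over 1.5 times without naïve replicate 1 (Th1 lower 4, Th2 lower 10, Th17 lower 4), without naïve replicate 2 (Th1 higher 18), without Th1 replicate 1 (Th1 lower 5) or 2 (Th1 higher 17), without Th2 replicate 2 (Th2 lower 9) and without Th17 replicate 1 (Th17 lower 4).

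Of 6114 values of single genes under 21 settings, 5547 kept their direction and side of the threshold, 437 lost and 107 gained a call, and 23 changed sign. Under voom *Mrpl19* became −0.61 in Th17 against naïve and −0.97 against Th2, and *Mrpl24* −2.05 in Th17 against Th2. The implied fragments of *Mrpl24* ran from 44 to 1658 while its FPKM ran from 56.5 to 102. Those of *Mrpl19* were 201 in Th17 replicate 1 and 453 to 843 in the other libraries, and its FPKM ran from 4.34 to 7.24. Under the GC and length correction, with and without the block alike, *Mrpl30* became −0.10 in Th1 and −0.25 in Th17 against naïve and *Mrps34* −0.013 and −0.31. In Th17 against naïve, *Mrpl11* became −0.36, *Mrpl49* −0.32, *Mrps18a* −0.33, *Mrps18b* −0.15 and *Mrps27* −0.029. With the block as well, *Mrpl55* became −0.37 in Th17 against naïve and *Polg*, the mitochondrial DNA polymerase, −0.25 in Th17 against Th2.

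With 2 libraries per group the spread rests on 4 residual degrees of freedom, and depth is known only as implied fragments.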
